A study of Mus musculus with 16 samples.

Results

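The collagen genes of the thyroid were compared between overfed and control mice. Every protein-coding gene whose symbol is that of a collagen alpha chain was taken from the raw count table, which gave 43 of 21640 genes, by a rule that reads the symbol alone. The 16 C57Bl/6J mice were wild type and started their diets at 8 weeks of age. For 3 or 6 weeks they received either standard chow, the control diet (CD), or a lard-based high-fat diet with sucrose in the drinking water (HF+SD). RNA of the whole thyroid was sequenced as 1 library per mouse, with 4 mice in each of the 4 groups, so mice are the replicates. The paper's own figure legend gives 3 CD mice at 6 weeks without naming them, and all 4 CD libraries of that time were used here. The comparison addresses which collagen classes differed between diets within each time point. The 2 time points were separate library projects, so levels at 3 and 6 weeks cannot be told apart from the project and were not tested against each other.

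Collagens are trimers of alpha chains wound into a triple helix. Fibrillar collagens (types I, II, III, V, XI, XXIV and XXVII) form the fibers of connective tissue, and the FACIT collagens sit on the surface of such fibers. Type IV collagen forms the sheet of the basement membrane, on which both thyroid follicles and capillaries rest. Multiplexins lie in the basement membrane zone, beaded filaments (type VI) run between cells and fibers, short-chain networks (types VIII and X) form lattices, and transmembrane collagens are anchored in the cell surface. In the thyroid, collagens of the stroma surround each follicle together with a dense capillary net.

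Libraries held 30025256 to 48508653 counts, of which 39114 to 191923 fell on collagen genes. Thyrocyte markers (10 genes) took 4.87% to 11.8% (CD) and 10.4% to 14.8% (HF+SD) at 6 weeks, and 27.3% to 30.2% (CD) and 28.4% to 30.7% (HF+SD) at 3 weeks. The CD libraries at 6 weeks differed widely in skeletal muscle reads: the share of 15 muscle markers was lowest in M22 (0.0747%), then M43 (2.70%), M48 (8.27%) and M45 (11.3%), against 0.0915% to 0.327% with HF+SD. At 3 weeks the same markers took at most 0.0053% in any library. Calls of named genes at 6 weeks that are lost without both M45 and M48 are marked as such. That refit keeps M22 and M43 as the only CD mice, and these differ in other reads. Parathyroid markers took 1.71% (M22) and 0.451% (M43), against 0.156% (M45), 0.232% (M48) and 0.0507% to 0.206% with HF+SD. C cell markers took 1.19% (M22) and 1.14% (M43), against 0.433% (M45), 0.521% (M48) and 0.427% to 0.504% with HF+SD. Markers of blood endothelium (10 genes) took 0.0260% to 0.0549% (CD) and 0.134% to 0.159% (HF+SD) at 6 weeks, and 0.0574% to 0.0684% (CD) and 0.101% to 0.147% (HF+SD) at 3 weeks, and 9 of the 10 were called higher at each time. Fibroblast markers (10 genes) took 0.126% to 0.174% (CD) and 0.111% to 0.155% (HF+SD) at 6 weeks and 0.113% to 0.159% (CD) and 0.0920% to 0.131% (HF+SD) at 3 weeks, and 0 of the 10 were called higher at either time by edgeR. In whole tissue, more cells of a type and more RNA per cell cannot be told apart.

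More collagen genes were called higher than lower with HF+SD at both time points (at 6 weeks this split turned on the thyrocyte scale). A gene was called at an adjusted p under 0.05 (edgeR quasi-likelihood test over all genes tested, Benjamini-Hochberg). At 6 weeks, 39 collagen genes had enough counts to be tested, and 20 were called, 15 higher and 5 lower. Over all 18249 genes tested, 21.5% were called at 6 weeks, 12.0% higher and 9.55% lower. At 3 weeks, 37 collagen genes were tested and 18 were called, 15 higher and 3 lower, against 14.9% of all 17238 genes tested, 9.07% higher and 5.78% lower. The median log2 fold change (HF+SD over CD) of the tested collagen genes was 0.63 at 6 weeks and 0.28 at 3 weeks, and that of all genes tested was -0.01 at both. The lowest HF+SD mouse lay above the highest CD mouse for 17 collagen genes at 6 weeks (13.8% of all genes) and 15 at 3 weeks (13.1% of all genes). The highest HF+SD mouse lay below the lowest CD mouse for 1 collagen gene at 6 weeks (9.97% of all genes) and 2 at 3 weeks (10.5% of all genes). In either direction groups were apart for 18 of the 39 at 6 weeks, against 23.8% of all genes, and for 17 of the 37 at 3 weeks, against 23.6%. With a further bound of 1 on the absolute log2 fold change, 13 collagen genes were called at 6 weeks (12.6% of all genes) and 4 at 3 weeks (4.66% of all genes).

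Of these genes, 9 were called higher at both times, namely Col4a1, Col4a2, Col5a2, Col6a2, Col9a3, Col11a2, Col13a1, Col18a1 and Col26a1. Col27a1 was lower at both, and Col12a1 was higher at 6 weeks (lower, and not called, when scaled to thyrocyte genes) and lower at 3 weeks. The other calls were made at 1 time point. At 6 weeks 8 of the 20 calls held when any 1 mouse was left out, and at 3 weeks 15 of the 18 did. Without M43, M48 or M5 the number called at 6 weeks was 13, without M18 or M35 it was 10, and without M34 it was 8. Calls over all genes fell as well, from 3927 of 18249 to 1934 of 18644 without M34 and 1944 of 18705 without M18. An alternative scale used 9 thyrocyte genes. At 6 weeks these took 0.332% (M22), 0.188% (M43), 0.112% (M45) and 0.148% (M48) of the counts on the CD. With HF+SD they took 0.307% to 0.334%, and 2 of the 9 were called higher without this scaling. When libraries were scaled to these 9 genes, the median over all genes shifted by -0.67 at 6 weeks and 9439 of the 18249 genes were called. Of the collagen genes 5 were called higher and 12 lower. The median of the collagen genes was then -0.09 and that of all genes -0.68. At 3 weeks this scaling shifted the overall median by -0.17, with 13 collagen genes called higher and 4 lower.

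**Figure D1:**
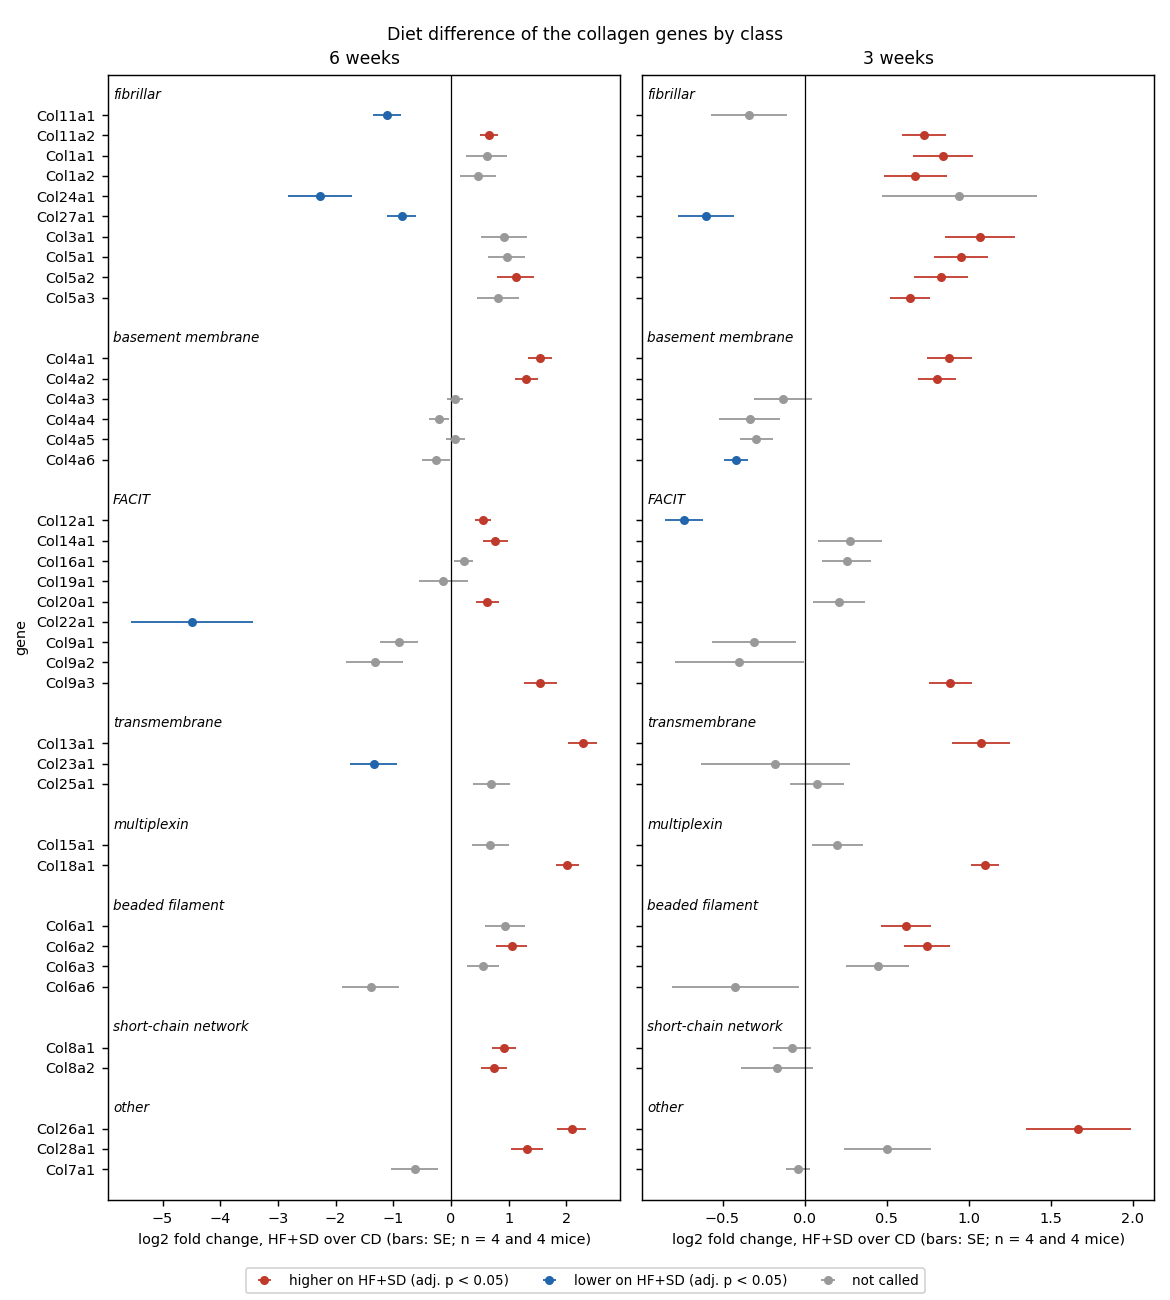
Log2 fold change of each tested collagen gene (HF+SD over CD, edgeR; bars are SE, 4 mice per group) at 6 weeks (left) and 3 weeks (right), grouped by class; the 2 horizontal axes differ. Red genes were called higher and blue genes lower, 15 and 5 at 6 weeks and 15 and 3 at 3 weeks. Within type IV, Col4a1 and Col4a2 lie far to the right of Col4a3 to Col4a6. Scaled to thyrocyte genes, the called genes Col11a2, Col12a1 and Col20a1 turn below 0 at 6 weeks. So do Col1a1, Col1a2, Col4a3, Col4a5, Col6a3, Col15a1 and Col16a1, which were not called without this scaling.

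The 4 classes of most interest differed in their medians. Fibrillar collagens had a median log2 fold change of 0.64 at 6 weeks (10 of 11 tested, 2 called higher and 3 lower) and 0.78 at 3 weeks (10 tested, 7 higher and 1 lower). Type IV collagens had 0.07 at 6 weeks (6 of 6 tested, 2 higher) and -0.21 at 3 weeks (2 higher and 1 lower). FACIT collagens had 0.22 at 6 weeks (9 of 9 tested, 4 higher and 1 lower) and 0.21 at 3 weeks (7 tested, 1 higher and 1 lower). Transmembrane collagens had 0.69 at 6 weeks (3 of 4 tested, 1 higher and 1 lower) and 0.07 at 3 weeks (3 tested, 1 higher). The fibrillar median at 6 weeks was 1.30 without M45 and M48 and 1.35 with the muscle score of each library as a covariate. Medians of so few genes are descriptions, and no difference between classes was tested. Scaled to thyrocyte genes, the medians at 6 weeks became -0.09 for the fibrillar, -0.58 for the type IV, -0.44 for the FACIT and 0.08 for the transmembrane collagens, against -0.68 for all genes.

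CPM (counts scaled to a common library size, with TMM factors) were divided by transcript length to compare levels between genes. At 6 weeks the highest collagen was Col3a1, the single chain of type III collagen, at 48.1 ± 21.4 CPM per kb (mean ± SD over all 8 mice). Col4a1 followed at 30.9 ± 16.9, Col4a2 at 28.6 ± 13.9, Col1a2 at 19.2 ± 6.25 and Col6a2 at 16.7 ± 7.52 CPM per kb. These means pool both diets, and their order differs within each. In CD mice Col3a1 (33.3 CPM per kb) was highest, and Col4a2 (16.5), Col1a2 (16.1) and Col4a1 (15.8) lay close together. In HF+SD mice Col3a1 (62.9), Col4a1 (46.0) and Col4a2 (40.7) led, with Col18a1 (22.6) next. At 3 weeks the order was Col4a1 at 88.5 ± 31.1, Col4a2 at 76.8 ± 24.7, Col18a1 at 53.3 ± 21.0, Col3a1 at 52.9 ± 22.6 and Col6a2 at 41.2 ± 12.1 CPM per kb. Each mean lay within 1 SD of the next in this order at 3 weeks, but these SDs pool both diets and so include the diet difference. In CD mice Col4a1 (62.3 CPM per kb) and Col4a2 (55.9) were highest at 3 weeks, above Col3a1 (34.2) and Col18a1 (33.96). In HF+SD mice Col4a1 (114.8) and Col4a2 (97.8) were again highest, above Col18a1 (72.7) and Col3a1 (71.6). The order of the genes within single mice was not tested.

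Collagen genes took a larger share of all counts on the HF+SD. At 6 weeks the share was 0.130% (M22), 0.110% (M43), 0.106% (M45) and 0.140% (M48) for CD, against 0.238% (M5), 0.205% (M18), 0.223% (M34) and 0.273% (M35) for HF+SD. At 3 weeks CD mice had 0.232% to 0.274% and HF+SD mice 0.343% to 0.396%. The groups did not overlap at either time.

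The make-up of the collagen counts shifted within type IV collagen. Together, Col4a1 and Col4a2 took 14.0% to 19.2% (CD) and 23.4% to 27.0% (HF+SD) of the collagen counts at 6 weeks, without overlap. At 3 weeks they took 29.5% to 35.1% (CD) and 34.2% to 41.4% (HF+SD), and the groups overlapped. Col4a3 to Col4a6 took 21.3% to 42.1% (CD) and 13.2% to 17.95% (HF+SD) at 6 weeks, and 15.8% to 28.0% (CD) and 9.83% to 12.8% (HF+SD) at 3 weeks, without overlap at either time. Multiplexins took 3.19% to 4.26% (CD) and 6.45% to 8.13% (HF+SD) at 6 weeks and 9.44% to 10.7% (CD) and 11.9% to 13.4% (HF+SD) at 3 weeks. The fibrillar share overlapped between diets, at 16.9% to 38.0% (CD) and 27.4% to 32.2% (HF+SD) at 6 weeks, where M22 had the lowest and M45 the highest value. FACIT collagens took 4.67% to 5.05% (CD) and 3.05% to 3.28% (HF+SD) at 3 weeks, and overlapped at 6 weeks. A share within a library does not depend on how libraries are scaled.

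**Figure D2:**
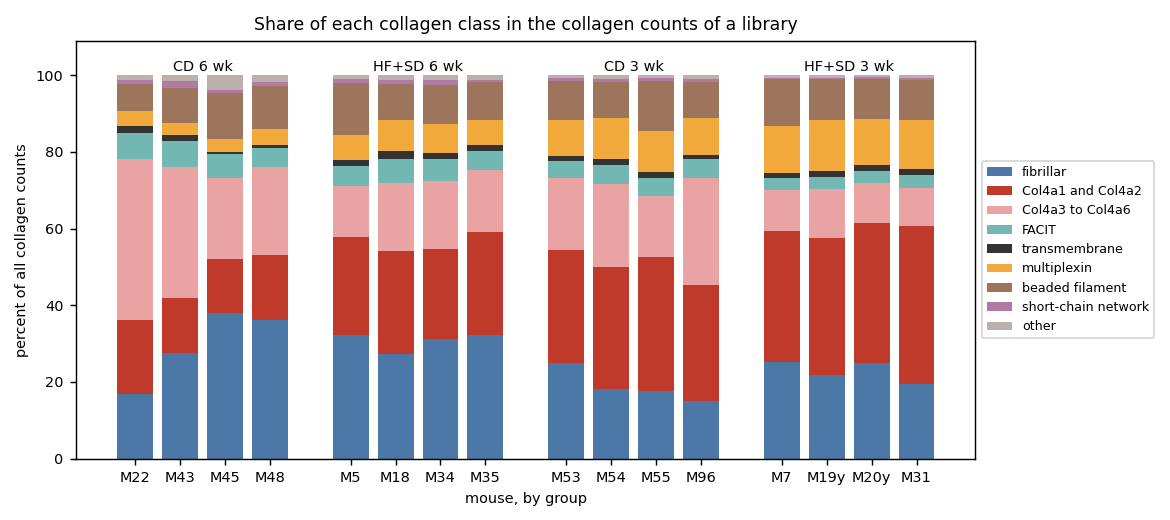
Percent of all collagen counts that fell on each collagen class in each of the 16 libraries, ordered by group; type IV is split into Col4a1 with Col4a2 and Col4a3 to Col4a6. The pale red block (Col4a3 to Col4a6) is smaller in every HF+SD library than in any CD library of the same time point, and the dark red block (Col4a1 and Col4a2) is larger in every HF+SD library at 6 weeks.

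In type IV collagen the chains of the common network rose, and none of the other 4 was called higher by edgeR. Col4a1 (ENSMUSG00000031502.12) and Col4a2 (ENSMUSG00000031503.14) encode the chains of the trimer found in nearly all basement membranes. At 6 weeks Col4a1 stood at 100.01 CPM (M22), 73.7 (M43), 108 (M45) and 136 (M48) with chow and at 312 (M5), 277 (M18), 266 (M34) and 362 (M35) with HF+SD. All 4 HF+SD mice exceeded the CD mice, and the level was 2.91-fold higher (log2 fold change 1.54, SE 0.20, adjusted p = 0.0013). Col4a1 reached 405 CPM (M53), 392 (M54), 501 (M55) and 349.7 (M96) in the chow-fed mice of 3 weeks, compared with 656 (M7), 672 (M19y), 798 (M20y) and 911 (M31) in the overfed mice. The groups again did not overlap, and the rise was 1.84-fold (log2 fold change 0.88, SE 0.14, adjusted p = 0.0033). CD mice measured 115 CPM (M22), 79.0 (M43), 99.4 (M45) and 132 (M48) of Col4a2 at 6 weeks, and HF+SD mice 272 (M5), 253 (M18), 209 (M34) and 316 (M35). Col4a2 was 2.47-fold higher (log2 fold change 1.30, SE 0.20, adjusted p = 0.0025), again without overlap. At 3 weeks Col4a2 averaged 360.4 ± 29.0 CPM with the CD and 630.5 ± 97.7 CPM with the HF+SD (SD, n = 4 each), and was 1.75-fold higher (log2 fold change 0.81, SE 0.12, adjusted p = 0.002). All 4 calls held when any 1 mouse was left out. On the thyrocyte scale Col4a2 at 6 weeks was at 0.63 (adjusted p = 0.074) and Col4a1 at 0.84 (adjusted p = 0.04).

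Col4a1 and Col4a2 are transcribed away from each other from starts that lie 21 bases apart, with the Col4a1 start inside the first bases of Col4a2 and the reverse, so their promoters are in part the same DNA. They are shown because these 2 genes moved together. RefSeq windows (GRCm38.p6, 250 bases before to 50 bases from the start) were taken for Col4a1 at chr8:11312777-11313076 on the minus strand and for Col4a2 at chr8:11312555-11312854 on the plus strand. In each sequence, written 5′ to 3′, capitals mark the 78 bases that both windows cover, read on opposite strands.
Col4a1: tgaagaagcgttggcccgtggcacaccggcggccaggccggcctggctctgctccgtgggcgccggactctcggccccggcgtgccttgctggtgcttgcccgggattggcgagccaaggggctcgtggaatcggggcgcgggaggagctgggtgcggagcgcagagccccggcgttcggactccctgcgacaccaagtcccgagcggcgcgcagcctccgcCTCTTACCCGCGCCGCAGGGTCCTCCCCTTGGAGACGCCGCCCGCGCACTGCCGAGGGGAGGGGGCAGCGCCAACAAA
Col4a2: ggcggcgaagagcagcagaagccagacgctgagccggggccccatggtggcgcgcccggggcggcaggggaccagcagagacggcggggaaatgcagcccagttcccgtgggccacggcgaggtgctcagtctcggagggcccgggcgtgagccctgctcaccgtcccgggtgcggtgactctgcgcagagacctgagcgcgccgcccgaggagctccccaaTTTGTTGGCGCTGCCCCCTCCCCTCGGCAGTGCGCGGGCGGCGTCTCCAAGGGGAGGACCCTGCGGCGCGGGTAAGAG
The GC box GGGCGG (either strand) occurs 1 time in the Col4a1 window and 3 times in the Col4a2 window, and 35.7% of all 32851 RefSeq windows hold at least 1. The CCAAT box (CCAAT, either strand) occurs 1 time in each, and 37.4% of all windows hold it. A match of letters is not a bound site. The files' own coordinates are on mm39, so no position of these windows was set against them.

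Col4a3, Col4a4 and Col4a5 form the trimer of specialised basement membranes such as that of the kidney glomerulus, and Col4a6 pairs with Col4a5 in others. At 6 weeks Col4a3 stood at 89.4 CPM (M22), 92.8 (M43), 79.2 (M45) and 98.6 (M48) with chow and at 92.3 (M5), 78.3 (M18), 96.3 (M34) and 112 (M35) with HF+SD. The groups overlapped (log2 fold change 0.07, SE 0.14, adjusted p = 0.75). Col4a4 (-0.21), Col4a5 (0.07) and Col4a6 (-0.26) had log2 fold changes near 0 at 6 weeks with overlapping groups and adjusted p-values of 0.43, 0.77 and 0.47. On the thyrocyte scale these 3 were called lower, at -0.85, -0.56 and -0.84 (adjusted p = 0.018, 0.03 and 0.01), against a median of -0.68 for all genes. Col4a3 was at -0.60 there (adjusted p = 0.063). With the muscle covariate Col4a6 was called lower, at -0.70 (adjusted p = 0.02). Col4a6 reached 141 CPM (M53), 156 (M54), 137 (M55) and 154 (M96) in the chow-fed mice of 3 weeks, compared with 107 (M7), 117 (M19y), 108 (M20y) and 108 (M31) in the overfed mice. This gene fell at 3 weeks (log2 fold change -0.42, SE 0.07, adjusted p = 0.0051), with all HF+SD mice below the CD mice. Its partner Col4a5 averaged 102 ± 11.5 CPM with the CD and 83.3 ± 6.94 CPM with the HF+SD at 3 weeks, with a log2 fold change of -0.29 and an adjusted p of 0.075. Col4a5 and Col4a6 also lie head to head, on the X chromosome, but their RefSeq starts are 1343 bases apart and their windows share no base. Col4a3 and Col4a4 at 3 weeks had log2 fold changes of -0.13 and -0.34 (adjusted p = 0.65 and 0.26), and 1 CD mouse, M96, held the highest value of both, 119 CPM of Col4a3 and 251 CPM of Col4a4.

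**Figure D3:**
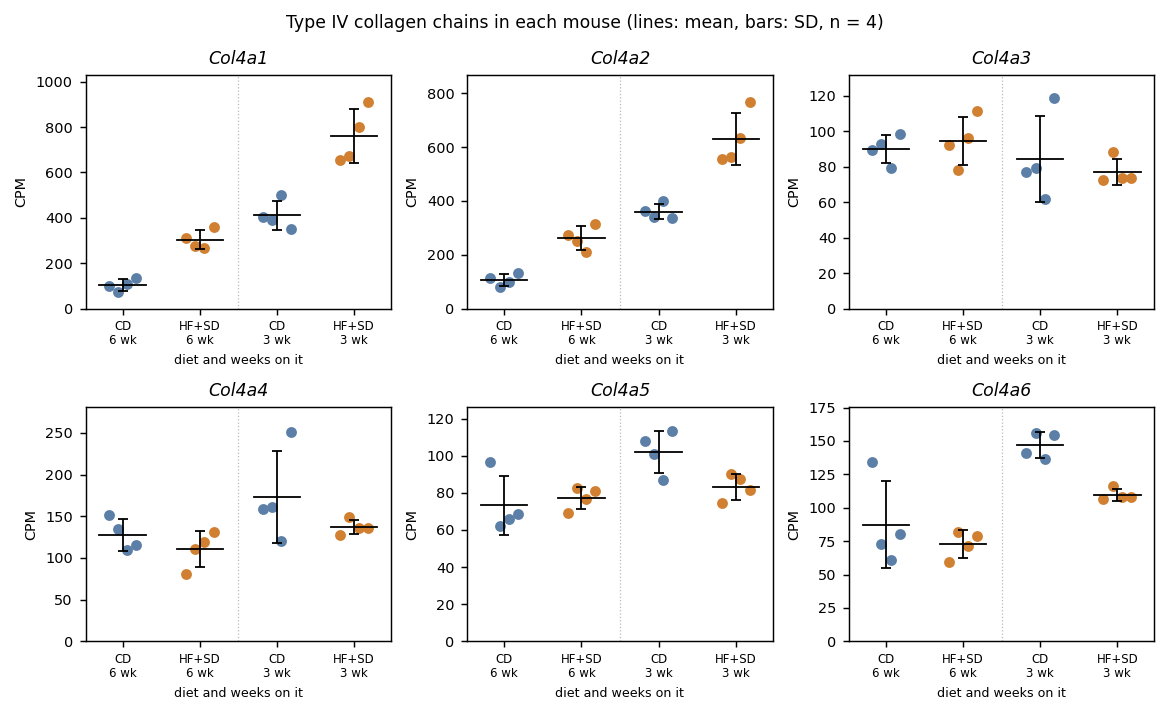
CPM of the 6 type IV collagen genes in each mouse by diet and weeks on it; lines are means and bars SD of 4 mice, and each vertical axis starts at 0. The HF+SD mice sit above all CD mice of the same time point in Col4a1 and Col4a2, overlap with them in Col4a3, Col4a4 and Col4a5, and sit below them in Col4a6 at 3 weeks.

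Ratios of counts within a library show the split without any scaling. Counts of Col4a1 per count of Col4a3 at 6 weeks were 1.12 (M22), 0.793 (M43), 1.36 (M45) and 1.38 (M48) for CD, and 3.38 (M5), 3.54 (M18), 2.76 (M34) and 3.24 (M35) for HF+SD, with no overlap. At 3 weeks this ratio was 5.30 ± 2.12 for CD mice and 9.95 ± 2.04 for HF+SD mice, and the groups overlapped. The ratio of Col4a2 to Col4a1 counts was 1.03 ± 0.102 for CD mice and 0.861 ± 0.0536 for HF+SD mice at 6 weeks, lower in every HF+SD mouse, and 0.882 ± 0.0687 for CD mice and 0.831 ± 0.0268 for HF+SD mice at 3 weeks, where the groups overlapped. The ratio of Col4a4 to Col4a3 was 2.04 ± 0.0692 for CD mice and 1.78 ± 0.0700 for HF+SD mice at 3 weeks, lower in every HF+SD mouse, and that of Col4a6 to Col4a5 overlapped at both times. Endothelial markers moved with Col4a1. Col4a1 counts per count of the 10 endothelial markers were 0.253 ± 0.0624 for CD mice and 0.223 ± 0.0262 for HF+SD mice at 6 weeks and 0.642 ± 0.0366 for CD mice and 0.634 ± 0.0271 for HF+SD mice at 3 weeks, and the groups overlapped both times. Ratios to Col4a3 and to marker lists were chosen after the values were seen, and the part of the endothelial markers in the rise was not tested.

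Among the multiplexins Col18a1 rose at both times, and Col15a1 was called only in some refits at 6 weeks. Col18a1 (ENSMUSG00000001435.16) encodes type XVIII collagen of vascular and epithelial basement membranes, the source of the fragment endostatin. CD mice measured 35.5 CPM (M22), 19.8 (M43), 34.2 (M45) and 36.1 (M48) of Col18a1 at 6 weeks, and HF+SD mice 111 (M5), 138 (M18), 123 (M34) and 134 (M35). It was 4.03-fold higher (log2 fold change 2.01, SE 0.20, adjusted p = 0.00036), the lowest adjusted p of any collagen gene at 6 weeks. At 3 weeks Col18a1 stood at 189 CPM (M53), 195 (M54), 206 (M55) and 170.5 (M96) with chow and at 375 (M7), 413 (M19y), 396 (M20y) and 442 (M31) with HF+SD. It was 2.14-fold higher (log2 fold change 1.10, SE 0.09, adjusted p = 0.00017), and again had the lowest adjusted p of any collagen gene. Its groups did not overlap, and its call held in every refit run at both times. Col15a1, the related chain of the muscle and capillary basement membrane zone, averaged 18.4 ± 9.32 CPM with the CD and 29.5 ± 5.35 CPM with the HF+SD at 6 weeks (log2 fold change 0.68, SE 0.32, adjusted p = 0.16) and had a log2 fold change of 0.20 at 3 weeks (adjusted p = 0.42). At 6 weeks Col15a1 was called higher without both M45 and M48, at 1.33 (adjusted p = 0.014). With the muscle covariate it was called as well, at 1.42 (adjusted p = 0.011). On the thyrocyte scale it was at -0.09 (adjusted p = 0.87). Col18a1 counts per Col15a1 count were 3.39 ± 0.364 for CD mice and 6.42 ± 1.36 for HF+SD mice at 3 weeks, higher in every HF+SD mouse, and overlapped at 6 weeks. Per count of the endothelial markers, Col18a1 was at 0.0758 ± 0.0186 for CD mice and 0.0927 ± 0.00595 for HF+SD mice at 6 weeks and 0.298 ± 0.0115 for CD mice and 0.345 ± 0.0488 for HF+SD mice at 3 weeks, with overlap both times.

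The abundant fibrillar collagens were called higher at 3 weeks. Col1a1 and Col1a2 encode the chains of type I collagen, the main fiber protein. Col1a1 reached 97.4 CPM (M53), 60.8 (M54), 62.9 (M55) and 50.2 (M96) in the chow-fed mice of 3 weeks, compared with 118 (M7), 113 (M19y), 140.4 (M20y) and 116 (M31) in the overfed mice. All HF+SD mice exceeded the CD mice (log2 fold change 0.84, SE 0.18, adjusted p = 0.014). Col1a2 averaged 103 ± 32.9 CPM with the CD and 165 ± 15.9 CPM with the HF+SD at 3 weeks (log2 fold change 0.68, SE 0.19, adjusted p = 0.04), and its call was lost without M54, M55, M96, M7, M19y, M20y or M31. On the thyrocyte scale Col1a2 was at 0.48 and not called (adjusted p = 0.13). CD mice measured 285 CPM (M53), 167 (M54), 175 (M55) and 133 (M96) of Col3a1 at 3 weeks, and HF+SD mice 421 (M7), 346 (M19y), 475 (M20y) and 353 (M31). Col3a1 was 2.10-fold higher (log2 fold change 1.07, SE 0.22, adjusted p = 0.011), the largest rise of a fibrillar gene at 3 weeks that was called. Type V chains, which start the growth of type I fibers, rose together at 3 weeks, with log2 fold changes of 0.95 for Col5a1, 0.83 for Col5a2 and 0.64 for Col5a3 (adjusted p = 0.0051, 0.0098 and 0.0074). All 3 were without overlap between diets. When all 16 libraries were fitted together, the 6 genes of types I, III and V kept log2 fold changes of 0.64 to 1.07, but none passed the threshold in edgeR, with adjusted p-values from 0.054 (Col5a1) to 0.21 (Col5a3).

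At 6 weeks the same genes were spread widely on the CD. At 6 weeks Col1a1 stood at 19.8 CPM (M22), 28.0 (M43), 49.2 (M45) and 71.0 (M48) with chow and at 65.1 (M5), 49.5 (M18), 62.2 (M34) and 80.6 (M35) with HF+SD. M48 lay within the HF+SD range, M45 just under its lowest mouse, and M22 and M43 well below (log2 fold change 0.62, SE 0.36, adjusted p = 0.25). Col3a1 reached 71.3 CPM (M22), 121 (M43), 285 (M45) and 264 (M48) in the chow-fed mice of 6 weeks, compared with 382 (M5), 273 (M18), 329 (M34) and 417 (M35) in the overfed mice. M45 lay within the HF+SD range and the gene was not called (log2 fold change 0.92, SE 0.40, adjusted p = 0.13). CD mice measured 11.2 CPM (M22), 20.7 (M43), 37.5 (M45) and 31.4 (M48) of Col5a2 at 6 weeks, and HF+SD mice 62.3 (M5), 45.6 (M18), 49.4 (M34) and 61.6 (M35). Col5a2 did not overlap and was called (log2 fold change 1.12, SE 0.33, adjusted p = 0.038), but the call was lost without M43, M48, M5, M18, M34 or M35, and on the thyrocyte scale the value was 0.33 (adjusted p = 0.53). Col1a2, Col5a1 and Col5a3 had log2 fold changes of 0.46 (-0.31 on the thyrocyte scale), 0.96 and 0.82 at 6 weeks (adjusted p = 0.31, 0.061 and 0.14). A refit without M45 and M48 kept M22 and M43 as the only CD mice. All 6 of these genes were then called higher, from 1.16 for Col1a2 to 1.87 for Col3a1. Of the collagen genes 17 were higher and 3 lower in that refit, and 1957 of all 18878 genes were called. With the muscle score of each library as a covariate the 6 genes were called as well, from 1.21 for Col1a2 to 2.04 for Col5a2. At 3 weeks, where muscle reads were at most 0.0053%, that covariate left Col5a1 and Col5a3 called and the other 4 not, at 0.86 (adjusted p = 0.093) for Col1a1, 0.69 (adjusted p = 0.18) for Col1a2, 1.08 (adjusted p = 0.081) for Col3a1 and 0.82 (adjusted p = 0.078) for Col5a2.

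Fibroblast markers were not called higher by edgeR where the fibrillar genes were. Of 8 markers of mural cells, another cell type of the stroma, 5 were called higher at 6 weeks and 3 at 3 weeks. At 6 weeks mural markers took 0.0361% to 0.0533% (CD) and 0.106% to 0.114% (HF+SD) of the counts. The part of mural cells in the rise of the fibrillar genes was not tested. Col3a1 counts per count of the 10 fibroblast markers were 0.105 ± 0.0413 for CD mice and 0.275 ± 0.0478 for HF+SD mice at 6 weeks and 0.146 ± 0.0300 for CD mice and 0.352 ± 0.0433 for HF+SD mice at 3 weeks. For Col1a1 these ratios were 0.0242 ± 0.00886 for CD mice and 0.0507 ± 0.0107 for HF+SD mice at 6 weeks and 0.0524 ± 0.00866 for CD mice and 0.108 ± 0.0154 for HF+SD mice at 3 weeks. In each case all HF+SD mice exceeded the CD mice. Dcn, which encodes the fibril-binding proteoglycan decorin, is 1 of the 10 markers and fell at 6 weeks (log2 fold change -0.82, SE 0.22, adjusted p = 0.029), a call lost without M43, M45, M48, M18, M34 or M35. Without both M45 and M48 its value was -0.64 (adjusted p = 0.15), and with the muscle covariate -0.38 (adjusted p = 0.19). The ratio of Col1a2 to Col1a1 counts was 2.14 ± 0.274 for CD mice and 1.86 ± 0.144 for HF+SD mice at 6 weeks with overlap, and 1.52 ± 0.0469 for CD mice and 1.36 ± 0.0648 for HF+SD mice at 3 weeks, lower in every HF+SD mouse. Col3a1 counts per Col1a1 count were 2.78 ± 0.114 for CD mice and 3.26 ± 0.259 for HF+SD mice at 3 weeks, higher in every HF+SD mouse, and overlapped at 6 weeks.

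**Figure D4:**
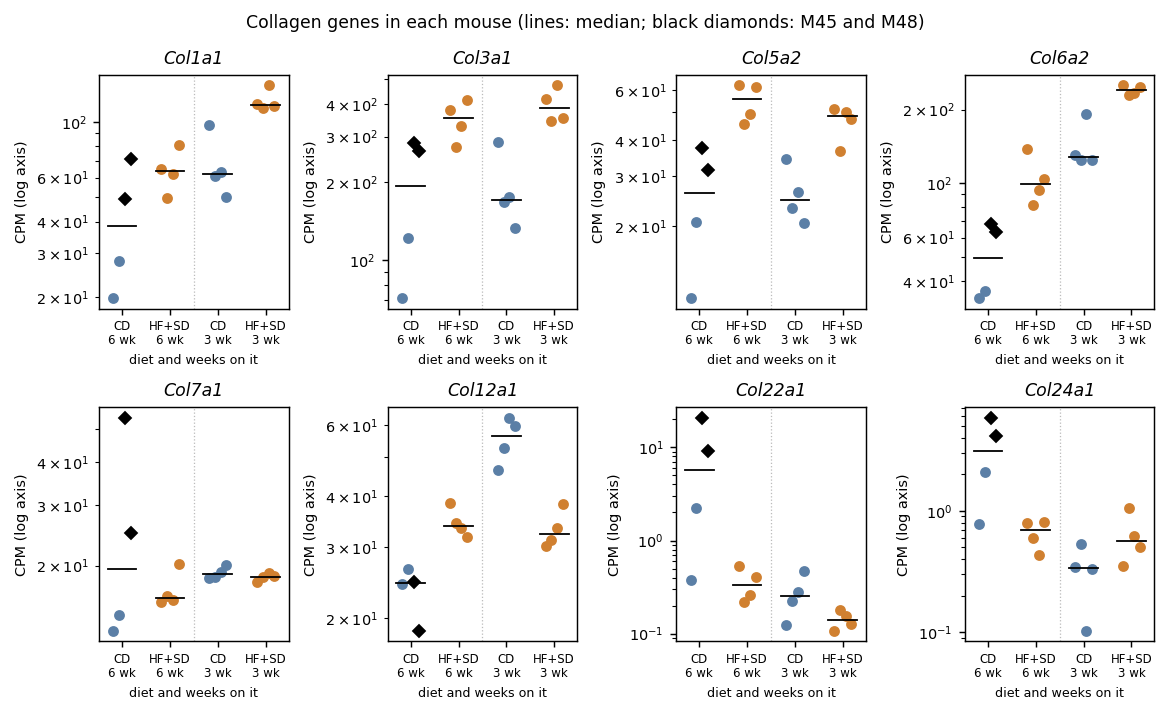
CPM (log axis) of 8 collagen genes in each mouse by diet and weeks on it; lines are medians of 4 mice and black diamonds are the CD mice M45 and M48. At 6 weeks M48 in Col1a1 and M45 in Col3a1 lie among the HF+SD mice, in Col22a1 and Col24a1 both diamonds lie above all other mice, and Col12a1 is higher with HF+SD at 6 weeks (though lower when scaled to thyrocyte genes) and lower with it at 3 weeks.

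The minor fibrillar collagens went in both directions. Col11a1 and Col11a2 encode chains of type XI collagen, the core of thin cartilage fibers. At 6 weeks Col11a1 stood at 8.41 CPM (M22), 9.14 (M43), 4.78 (M45) and 7.28 (M48) with chow and at 2.61 (M5), 4.20 (M18), 3.29 (M34) and 3.57 (M35) with HF+SD. Col11a1 fell at 6 weeks (log2 fold change -1.12, SE 0.24, adjusted p = 0.013), with all HF+SD mice below the CD mice, and was at -0.34 at 3 weeks (adjusted p = 0.36). Col11a2 averaged 5.38 ± 0.542 CPM with the CD and 8.47 ± 0.929 CPM with the HF+SD at 6 weeks (log2 fold change 0.66, SE 0.16, adjusted p = 0.019) and 6.45 ± 1.02 CPM with the CD and 10.7 ± 0.878 CPM with the HF+SD at 3 weeks (log2 fold change 0.73, SE 0.14, adjusted p = 0.0071), and rose at both times without overlap. Its call at 6 weeks was lost without M45, M48, M34 or M35, and its log2 fold change there was 0.64 (adjusted p = 0.093) without both M45 and M48 and -0.03 (adjusted p = 0.93) on the thyrocyte scale. Col27a1, a fibrillar collagen known from cartilage, fell at 6 weeks (log2 fold change -0.86, SE 0.26, adjusted p = 0.043) and 3 weeks (log2 fold change -0.60, SE 0.17, adjusted p = 0.043), with groups that overlapped both times. Those calls were lost without M43, M48, M5, M18, M34 or M35 at 6 weeks, and without M53, M54, M55, M96, M19y, M20y or M31 at 3 weeks. Cartilage markers (8 genes found) took at most 0.0030% of counts in any library.

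Col24a1, a fibrillar collagen known from bone and cornea, followed the muscle reads at 6 weeks. Col24a1 reached 0.775 CPM (M22), 2.10 (M43), 5.82 (M45) and 4.12 (M48) in the chow-fed mice of 6 weeks, compared with 0.791 (M5), 0.596 (M18), 0.436 (M34) and 0.806 (M35) in the overfed mice. M22, the CD mouse with the fewest muscle reads, lay within the HF+SD range, and M45 was highest. The fitted fall (log2 fold change -2.27, SE 0.55, adjusted p = 0.02) became -1.12 without M45 and M48 (adjusted p = 0.15) and -0.63 with the muscle covariate (adjusted p = 0.25), and the call was also lost without M48, M18, M34 or M35. At 3 weeks it averaged 0.329 ± 0.177 CPM with the CD and 0.632 ± 0.300 CPM with the HF+SD and was not called (adjusted p = 0.21). The part of muscle in this difference was not tested.

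Beaded filament chains were called higher in part, and which were called at 6 weeks depended on the fit. Col6a1, Col6a2 and Col6a3 encode the chains of the usual type VI trimer, which links cells to the fibers around them. CD mice measured 34.03 CPM (M22), 36.2 (M43), 68.4 (M45) and 63.1 (M48) of Col6a2 at 6 weeks, and HF+SD mice 138 (M5), 81.9 (M18), 93.9 (M34) and 104 (M35). All HF+SD mice exceeded the CD mice (log2 fold change 1.05, SE 0.27, adjusted p = 0.023), and the call was lost without M43, M5, M34 or M35, and on the thyrocyte scale, at 0.29 (adjusted p = 0.51). At 3 weeks Col6a2 stood at 131 CPM (M53), 125 (M54), 192 (M55) and 125 (M96) with chow and at 251 (M7), 228 (M19y), 233 (M20y) and 247 (M31) with HF+SD. The rise was 1.68-fold (log2 fold change 0.75, SE 0.14, adjusted p = 0.0071). Col6a1 was higher at 3 weeks (log2 fold change 0.62, SE 0.15, adjusted p = 0.024), a call lost without M96, M7, M20y or M31, and was at 0.93 at 6 weeks (adjusted p = 0.082), without overlap both times. Its call at 3 weeks was also lost on the thyrocyte scale, at 0.44 (adjusted p = 0.092), and with the muscle covariate, at 0.68 (adjusted p = 0.1). With all 16 libraries fitted together it was lost as well. Col6a3 was not called at 6 weeks (0.56, adjusted p = 0.18) or 3 weeks (0.45, adjusted p = 0.14). Without both M45 and M48, Col6a1 was called higher at 6 weeks, at 1.74 (adjusted p = 0.0058), and Col6a3 was at 1.05 (adjusted p = 0.052). With the muscle covariate both were called there, at 1.83 (adjusted p = 0.0015) and 1.13 (adjusted p = 0.013). On the thyrocyte scale they were at 0.14 (adjusted p = 0.8) and -0.21 (adjusted p = 0.66). Col6a3 counts per Col6a1 count were 1.17 ± 0.238 for CD mice and 0.821 ± 0.0885 for HF+SD mice at 6 weeks, lower in every HF+SD mouse. Col6a6, a rarer alternative to Col6a3, averaged 1.69 ± 1.09 CPM with the CD and 0.635 ± 0.168 CPM with the HF+SD at 6 weeks with its highest values in M45 and M48 (adjusted p = 0.073).

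Col8a1 and Col8a2 encode type VIII collagen, a lattice found below vascular endothelium. Col8a1 reached 8.52 CPM (M22), 13.4 (M43), 9.71 (M45) and 8.44 (M48) in the chow-fed mice of 6 weeks, compared with 19.1 (M5), 21.2 (M18), 21.7 (M34) and 13.8 (M35) in the overfed mice. It rose at 6 weeks (log2 fold change 0.92, SE 0.21, adjusted p = 0.016) without overlap, as did Col8a2 (log2 fold change 0.74, SE 0.22, adjusted p = 0.043). The call of Col8a1 was lost without M18 or M34, and that of Col8a2 without any 1 of the 8 mice. Without both M45 and M48, Col8a1 was at 0.80 (adjusted p = 0.1) and Col8a2 at 0.84 (adjusted p = 0.13). With the muscle covariate they were at 0.97 (adjusted p = 0.059) and 0.94 (adjusted p = 0.083), and on the thyrocyte scale at 0.22 (adjusted p = 0.52) and 0.05 (adjusted p = 0.91). At 3 weeks their log2 fold changes were -0.08 and -0.17 (adjusted p = 0.69 and 0.64).

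Among the FACIT collagens Col9a3 rose at both times. It encodes 1 of the 3 chains of type IX collagen, which decorates cartilage fibers. CD mice measured 18.3 CPM (M22), 9.04 (M43), 6.85 (M45) and 10.1 (M48) of Col9a3 at 6 weeks, and HF+SD mice 25.7 (M5), 34.4 (M18), 35.1 (M34) and 34.1 (M35). No HF+SD mouse was as low as any CD mouse (log2 fold change 1.55, SE 0.28, adjusted p = 0.0065). At 3 weeks Col9a3 stood at 20.5 CPM (M53), 22.3 (M54), 20.4 (M55) and 18.03 (M96) with chow and at 30.7 (M7), 33.1 (M19y), 41.9 (M20y) and 44.5 (M31) with HF+SD. The rise at 3 weeks was 1.85-fold (log2 fold change 0.89, SE 0.13, adjusted p = 0.0023). The other chains of type IX were not called at 6 weeks, with log2 fold changes of -0.90 for Col9a1 and -1.32 for Col9a2 (adjusted p = 0.082 and 0.086), nor at 3 weeks (-0.31 and -0.40, adjusted p = 0.45 and 0.53). Col9a1 was called lower at 6 weeks by DESeq2, an alternative test (adjusted p = 0.031), and with the muscle covariate, at -1.40 (adjusted p = 0.012). On the thyrocyte scale both were called lower, at -1.47 and -2.03 (adjusted p = 0.0058 and 0.015), against a median of -0.68 for all genes. Without both M45 and M48 neither was called.

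Col12a1 moved in opposite directions at the 2 times. The gene (ENSMUSG00000032332.18) encodes type XII collagen, which sits on type I fibers of dense connective tissue. Col12a1 reached 24.3 CPM (M22), 26.4 (M43), 24.5 (M45) and 18.6 (M48) in the chow-fed mice of 6 weeks, compared with 38.5 (M5), 34.4 (M18), 33.3 (M34) and 31.8 (M35) in the overfed mice. All HF+SD mice exceeded the CD mice (log2 fold change 0.56, SE 0.14, adjusted p = 0.022). CD mice measured 46.5 CPM (M53), 52.7 (M54), 62.5 (M55) and 59.9 (M96) of Col12a1 at 3 weeks, and HF+SD mice 30.2 (M7), 31.1 (M19y), 33.5 (M20y) and 38.4 (M31). Here all HF+SD mice lay below the CD mice (log2 fold change -0.73, SE 0.11, adjusted p = 0.0029). The HF+SD mice spanned 31.8 to 38.5 CPM at 6 weeks and 30.2 to 38.4 CPM at 3 weeks, and the CD mice 18.6 to 26.4 and 46.5 to 62.5 CPM. CPM were scaled within each time point and the 2 times were separate library projects, so these levels cannot be compared between times. The call at 6 weeks was lost without M48, M5, M18 or M34, and on the thyrocyte scale the log2 fold change there was -0.12 (adjusted p = 0.64). Without both M45 and M48 it was 0.46 (adjusted p = 0.085). The fall at 3 weeks kept its call in every refit run.

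Col14a1, the close relative of Col12a1 on the same fibers, rose at 6 weeks without overlap (log2 fold change 0.77, SE 0.22, adjusted p = 0.036) and was at 0.28 at 3 weeks (adjusted p = 0.37). The rise was lost without M43, M48, M5, M18, M34 or M35, and it was 1.08 without M45 and M48 (adjusted p = 0.03) but 0.01 on the thyrocyte scale (adjusted p = 0.98). Col20a1 averaged 5.41 ± 1.28 CPM with the CD and 8.37 ± 0.580 CPM with the HF+SD at 6 weeks and was called at the edge of the threshold (log2 fold change 0.63, SE 0.20, adjusted p = 0.0495), a call lost without M43, M45, M48, M5, M18, M34 or M35. Its log2 fold change was 0.39 (adjusted p = 0.21) without both M45 and M48, and -0.00 on the thyrocyte scale. Col16a1, at 0.22 and 0.26, was called at neither time (adjusted p = 0.37 and 0.28).

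Col22a1, known from the junction of muscle and tendon, followed the muscle reads at 6 weeks as Col24a1 did. At 6 weeks Col22a1 stood at 0.373 CPM (M22), 2.24 (M43), 20.7 (M45) and 9.10 (M48) with chow and at 0.527 (M5), 0.219 (M18), 0.262 (M34) and 0.403 (M35) with HF+SD. M45 and M48 stood far above the rest, and M22 lay within the HF+SD range. The fitted fall (log2 fold change -4.49, SE 1.05, adjusted p = 0.018) was -1.87 without M45 and M48 (adjusted p = 0.12) and -0.74 with the muscle covariate (adjusted p = 0.42), and it was lost without M18, M34 or M35. At 3 weeks the gene had 4 to 20 counts per library and was not tested.

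Of the transmembrane collagens, Col13a1 rose at both times. Col13a1 (ENSMUSG00000058806.16) encodes type XIII collagen, found at cell-matrix contacts and the neuromuscular junction. Col13a1 reached 8.92 CPM (M22), 5.00 (M43), 3.87 (M45) and 5.46 (M48) in the chow-fed mice of 6 weeks, compared with 26.6 (M5), 31.04 (M18), 26.3 (M34) and 29.2 (M35) in the overfed mice. The level was 4.86-fold higher (log2 fold change 2.28, SE 0.25, adjusted p = 0.0005), and the lowest HF+SD mouse was at 26.3 CPM against a highest CD mouse of 8.92 CPM. CD mice measured 22.2 CPM (M53), 26.3 (M54), 28.4 (M55) and 16.7 (M96) of Col13a1 at 3 weeks, and HF+SD mice 40.9 (M7), 43.7 (M19y), 52.2 (M20y) and 60.3 (M31). At 3 weeks the rise was 2.11-fold (log2 fold change 1.08, SE 0.18, adjusted p = 0.0039). Its call held in every refit run at both times. Col23a1 fell at 6 weeks (log2 fold change -1.34, SE 0.41, adjusted p = 0.046) with groups that overlapped, since M45 (2.14 CPM) lay below M5 (2.66 CPM). That call was lost without M22, M43, M48, M18, M34 or M35, and Col23a1 was at -0.18 at 3 weeks (adjusted p = 0.82). Col25a1, known from neurons, was called at neither time (0.69 and 0.07, adjusted p = 0.15 and 0.79).

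Outside these classes, Col26a1 rose at both times from a low level. It encodes a short collagen first described in testis and ovary. At 6 weeks Col26a1 stood at 1.09 CPM (M22), 1.05 (M43), 0.910 (M45) and 1.56 (M48) with chow and at 3.96 (M5), 3.86 (M18), 6.14 (M34) and 5.75 (M35) with HF+SD. All HF+SD mice exceeded the CD mice (log2 fold change 2.09, SE 0.25, adjusted p = 0.00088). Col26a1 reached 1.06 CPM (M53), 0.762 (M54), 0.849 (M55) and 0.521 (M96) in the chow-fed mice of 3 weeks, compared with 2.12 (M7), 2.00 (M19y), 1.89 (M20y) and 4.12 (M31) in the overfed mice. The groups again did not overlap, with M31 highest (log2 fold change 1.67, SE 0.32, adjusted p = 0.0086). With the muscle covariate Col26a1 at 3 weeks was at 1.78 and not called (adjusted p = 0.06). Col28a1, known from peripheral nerve, rose at 6 weeks from 0.966 ± 0.305 CPM to 2.41 ± 0.518 CPM (log2 fold change 1.32, SE 0.27, adjusted p = 0.011; 0.60 and not called on the thyrocyte scale) and was at 0.50 at 3 weeks (adjusted p = 0.23). Schwann cell markers (8 genes) took 0.0108% to 0.0234% (CD) and 0.0178% to 0.0314% (HF+SD) at 6 weeks, with 0 called higher and 1 lower. The highest share was that of M5, against 0.0180% (M18), 0.0178% (M34) and 0.0185% (M35). Col7a1, which forms the anchoring fibrils of skin, was at 53.7 CPM in M45 and 24.8 CPM in M48 but at 12.9 to 20.2 CPM in the other 6 libraries at 6 weeks, and was called at neither time (adjusted p = 0.3 and 0.74).

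The collagen genes that were not tested had few reads in most libraries. At 6 weeks, Col2a1, the fibrillar collagen of cartilage, had 1 to 13 counts per library, Col6a5 2 to 18, and Col17a1, the transmembrane collagen of hemidesmosomes, 0 to 33. Col10a1, the collagen of hypertrophic cartilage, had 216 counts in both M43 and M48, 27 in M34 and 1 to 10 in the other 5 libraries at 6 weeks. At 3 weeks these 4 genes had 0 to 21 counts. Col19a1 had 5 to 17 counts at 6 weeks (-0.13, adjusted p = 0.85) and was not tested at 3 weeks. The reads of Col10a1 sat in 2 of the 4 CD mice, and no difference in the other untested genes was detectable at this depth.

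Whether the diet difference itself changed with time was tested by the interaction over all 16 libraries, where a positive value is a larger log2 fold change at 6 than at 3 weeks. Of 39 collagen genes tested, 1 was called, Col12a1 (difference 1.24, SE 0.17, adjusted p = 0.014), against 0.0792% of all 18929 genes tested. It was lost without M7, M19y or M20y, on the thyrocyte scale, and with the muscle covariate. Col13a1 (difference 1.15, SE 0.31, adjusted p = 0.065), Col18a1 (difference 0.85, SE 0.24, adjusted p = 0.068) and Col8a1 (difference 0.94, SE 0.22, adjusted p = 0.06) lay outside the threshold. So did Col24a1 (difference -3.28, SE 0.79, adjusted p = 0.062). By DESeq2, an alternative test, all of these were called, at adjusted p = 0.0068 (Col13a1), 0.01 (Col18a1), 0.0035 (Col8a1) and 0.0018 (Col24a1). For Col4a1 the values were difference 0.60, SE 0.27, adjusted p = 0.21, and for Col3a1 difference -0.22, SE 0.50, adjusted p = 0.84. Col3a1 was called at 3 weeks and not at 6 weeks, and its rise is not shown to differ between them.

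Other genes of the collagen pathway were read from 7 lists of 93 genes, of which 92 were found and 89 tested. At 6 weeks 22 were called, 19 higher and 3 lower, and at 3 weeks 22 were called, 18 higher and 4 lower. That is 24.7% of the genes tested at each time, against 21.5% of all genes at 6 weeks and 14.9% at 3 weeks, so the share at 6 weeks is near that of all genes. On the thyrocyte scale 5 were higher and 18 lower at 6 weeks, and 6 higher and 10 lower at 3 weeks. The pathway genes had a median log2 fold change of 0.28 at 6 weeks and 0.11 at 3 weeks, against -0.01 for all genes at both. Without M22 the count at 6 weeks was 37 and without M18 it was 14, and at 3 weeks it lay between 15 (without M31) and 27 (without M55). Calls over all genes at 6 weeks were 5743 without M22 and 1944 without M18, against 3927 with all mice. At 3 weeks they were 1482 without M31 and 3393 without M55, against 2560. Called higher at both times were 11 genes, namely Bgn, Hspg2, Itga1, Itga2, Lama3, Lama4, Lox, Loxl4, Nid1, Plod1 and Sparc.

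Chains are modified in the ER before they fold. Of 17 modifying genes, 3 were higher and 1 lower at 6 weeks, and 2 higher and 1 lower at 3 weeks. That is 23.5% and 17.6% called, against 21.5% and 14.9% of all genes. Plod1, a lysyl hydroxylase, rose at 6 weeks (log2 fold change 0.93, SE 0.16, adjusted p = 0.0042) and 3 weeks (log2 fold change 0.57, SE 0.09, adjusted p = 0.0037). P4ha2, a subunit of prolyl 4-hydroxylase, rose at 6 weeks (log2 fold change 0.93, SE 0.16, adjusted p = 0.0048), while its paralog P4ha3 fell (log2 fold change -1.60, SE 0.29, adjusted p = 0.0061). On the thyrocyte scale Plod1 at 6 weeks was at 0.25 (adjusted p = 0.37) and P4ha2 at 0.23 (adjusted p = 0.42). At 3 weeks Tmem38b, an ion channel of the ER, rose by 0.43 and P3h2, a prolyl 3-hydroxylase, was at -0.46 (adjusted p = 0.0044 and 0.025), the latter a call lost without M53, M96, M19y, M20y or M31, and Tmem38b was at 0.26 (adjusted p = 0.18) on the thyrocyte scale. Of 9 chaperone and export genes 1 was called at each time (11.1%, below the share of all genes), Sparc, a collagen-binding secreted protein. Sparc was at 0.86 at 6 weeks and 0.44 at 3 weeks (adjusted p = 0.0078 and 0.026), the latter a call lost without M53, M54, M96, M19y, M20y or M31. On the thyrocyte scale Sparc was at 0.16 (adjusted p = 0.66) at 6 weeks and 0.27 (adjusted p = 0.13) at 3 weeks. Serpinh1, the collagen chaperone HSP47, was at 0.52 and -0.04 (adjusted p = 0.19 and 0.86).

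Processing and cross-linking genes were called higher where called, 3 of 13 tested at 6 weeks and 5 of 13 at 3 weeks. These are 23.1% and 38.5%, against 21.5% and 14.9% of all genes called, so the share at 6 weeks is near that of all genes. Loxl4 and Lox encode lysyl oxidases, which cross-link the fibers. CD mice measured 6.28 CPM (M22), 4.70 (M43), 4.42 (M45) and 6.99 (M48) of Loxl4 at 6 weeks, and HF+SD mice 10.8 (M5), 28.8 (M18), 21.4 (M34) and 19.9 (M35). The groups did not overlap (log2 fold change 1.85, SE 0.30, adjusted p = 0.0033), nor at 3 weeks (log2 fold change 1.08, SE 0.15, adjusted p = 0.0016). At 6 weeks Lox stood at 4.13 CPM (M22), 6.99 (M43), 3.77 (M45) and 6.28 (M48) with chow and at 15.98 (M5), 10.4 (M18), 20.2 (M34) and 20.4 (M35) with HF+SD. Lox was 3.15-fold higher (log2 fold change 1.66, SE 0.28, adjusted p = 0.0044). Adamts2, which removes the N-propeptide, rose at 3 weeks (log2 fold change 0.81, SE 0.18, adjusted p = 0.018), a call lost without M7 and, at 0.63 (adjusted p = 0.068), on the thyrocyte scale. Per Col1a1 count, a ratio chosen after the values were seen, Lox was at 0.0836 ± 0.0182 for CD mice and 0.0765 ± 0.00848 for HF+SD mice at 3 weeks and 0.156 ± 0.0865 for CD mice and 0.258 ± 0.0477 for HF+SD mice at 6 weeks, with overlap both times.

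Of 13 degradation genes tested, 3 were higher and 1 lower at 6 weeks, and 1 was lower at 3 weeks (30.8% and 7.69% called, against 21.5% and 14.9% of all genes). Timp1 and the collagenase gene Mmp13 rose at 6 weeks from 1.76 and 0.723 CPM on the CD (log2 fold changes 1.00 and 0.99, adjusted p = 0.013 and 0.016), and the call of Mmp13 was lost without M18. Without both M45 and M48 Mmp13 was at 0.86 (adjusted p = 0.11), and on the thyrocyte scale Timp1 was at 0.29 (adjusted p = 0.42) and Mmp13 at 0.36 (adjusted p = 0.26). Timp4 reached 7.58 CPM (M22), 7.86 (M43), 8.77 (M45) and 8.93 (M48) in the chow-fed mice of 6 weeks, compared with 1.56 (M5), 2.79 (M18), 1.02 (M34) and 1.37 (M35) in the overfed mice. Timp4, like Timp1 an inhibitor of matrix metalloproteinases, fell (log2 fold change -2.30, SE 0.30, adjusted p = 0.0012), and its groups were far apart. CD mice measured 1669.9 CPM (M53), 1459 (M54), 2071 (M55) and 2318 (M96) of Timp3 at 3 weeks, and HF+SD mice 953 (M7), 896 (M19y), 982 (M20y) and 1001 (M31). Timp3, the inhibitor that binds to the matrix, fell at 3 weeks (log2 fold change -0.97, SE 0.14, adjusted p = 0.002), and was at 0.02 at 6 weeks (adjusted p = 0.94).

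Of 8 collagen receptors tested, 3 were higher at each time (37.5%, against 21.5% of all genes called at 6 weeks and 14.9% at 3 weeks). At 6 weeks Itga2 stood at 0.660 CPM (M22), 0.639 (M43), 0.910 (M45) and 0.768 (M48) with chow and at 3.19 (M5), 3.70 (M18), 3.66 (M34) and 2.79 (M35) with HF+SD. Itga2, an alpha subunit of a collagen-binding integrin, was 4.48-fold higher at 6 weeks (log2 fold change 2.16, SE 0.21, adjusted p = 0.00029) and 3.01-fold higher at 3 weeks (log2 fold change 1.59, SE 0.29, adjusted p = 0.0065), and did not overlap at either. Itga1 reached 44.97 CPM (M22), 51.5 (M43), 44.3 (M45) and 45.8 (M48) in the chow-fed mice of 6 weeks, compared with 110.1 (M5), 121 (M18), 126 (M34) and 107 (M35) in the overfed mice. Itga1, the alpha subunit of another, rose at 6 weeks (log2 fold change 1.32, SE 0.12, adjusted p = 0.00022) and 3 weeks (log2 fold change 0.62, SE 0.09, adjusted p = 0.0019). Itga11 rose at 3 weeks (log2 fold change 1.03, SE 0.22, adjusted p = 0.014), a call lost with the muscle covariate and with all 16 libraries fitted together.

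The proteins that assemble with type IV collagen were partly higher, 5 of 16 at 6 weeks, and 5 higher and 1 lower at 3 weeks. That is 31.25% and 37.5% called, against 21.5% and 14.9% of all genes. CD mice measured 10.6 CPM (M22), 9.20 (M43), 7.05 (M45) and 8.44 (M48) of Lama3 at 6 weeks, and HF+SD mice 24.3 (M5), 28.8 (M18), 29.0 (M34) and 30.5 (M35). Lama3, a laminin chain of epithelial basement membranes, rose at 6 weeks (log2 fold change 1.67, SE 0.16, adjusted p = 0.00028), and Hspg2, which encodes perlecan, rose as well (log2 fold change 0.94, SE 0.25, adjusted p = 0.025), a call lost without M43, M5 or M35 and, at 0.20 (adjusted p = 0.64), on the thyrocyte scale. At 3 weeks Nid1, the laminin linker nidogen, rose by 0.81 and Lama4 of vascular laminins by 0.52 on the log2 scale (adjusted p = 0.0037 and 0.044), and Lamb3, a laminin chain of epithelia, was at -0.50 (adjusted p = 0.022). The call of Lama4 was lost without M54, M96, M7, M20y or M31 and on the thyrocyte scale, at 0.35 (adjusted p = 0.17), and that of Lamb3 without M7, M19y or M20y. Of 13 fibril-associated genes tested, 15.4% were called at 6 weeks and 23.1% at 3 weeks, against 21.5% and 14.9% of all genes. Bgn, which encodes biglycan, rose at 6 weeks (log2 fold change 1.26, SE 0.21, adjusted p = 0.0036) and 3 weeks (log2 fold change 0.62, SE 0.14, adjusted p = 0.015), and on the thyrocyte scale it was at 0.52 (adjusted p = 0.22) and 0.43 (adjusted p = 0.1). Aspn, which encodes asporin, was higher and Thbs1, which encodes thrombospondin, lower at 3 weeks (0.57 and -0.79, adjusted p = 0.013 and 0.049), and the call of Thbs1 was lost without M53, M55, M7, M19y or M31, and that of Aspn on the thyrocyte scale, at 0.39 (adjusted p = 0.15).

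**Figure D5:**
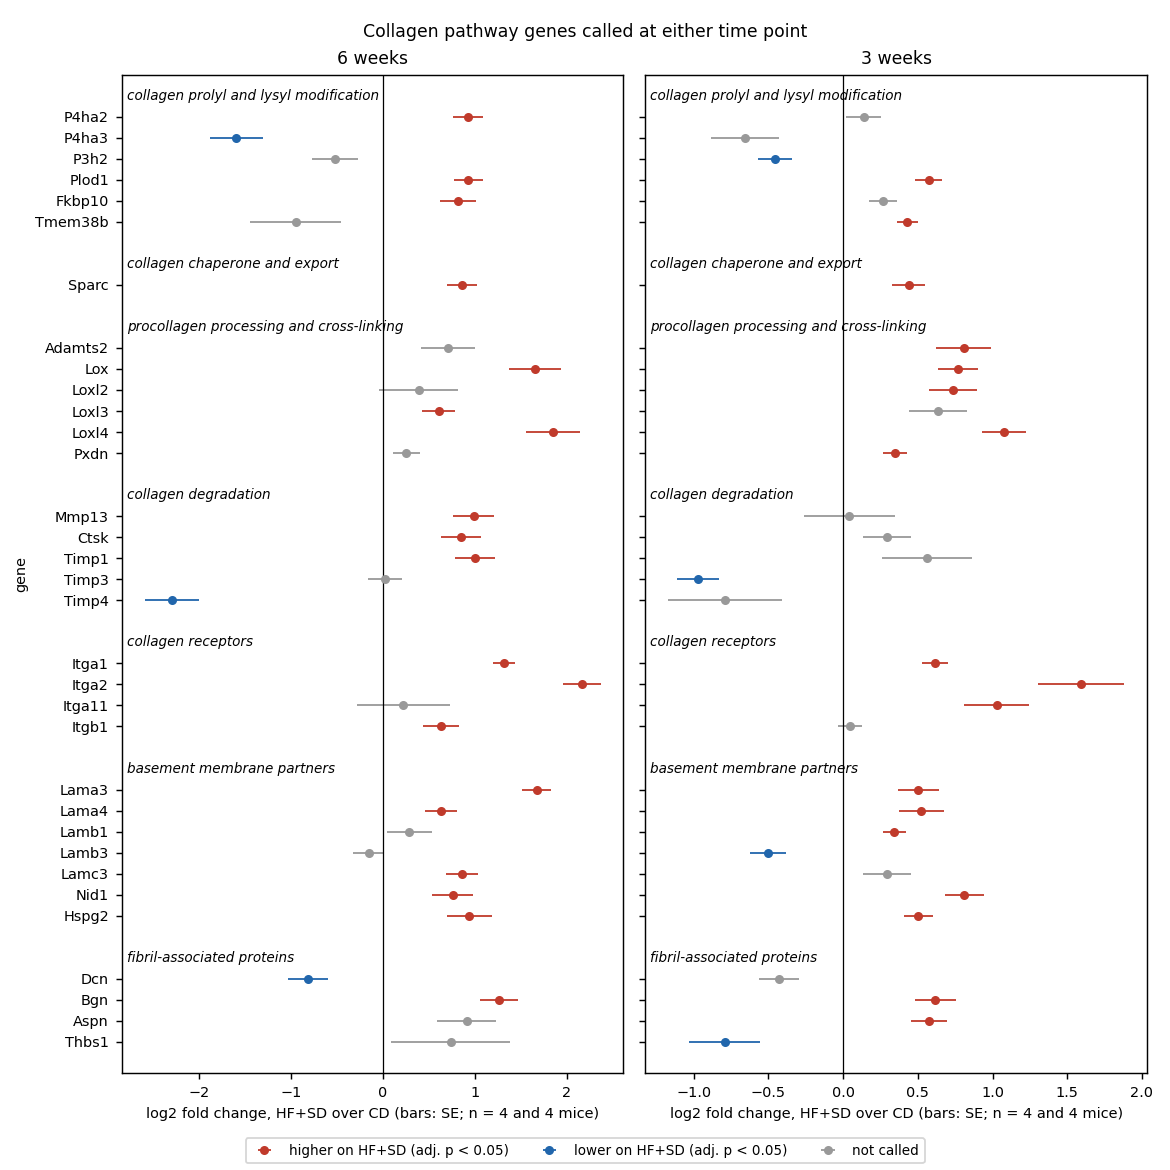
Log2 fold change (HF+SD over CD, edgeR; bars are SE, 4 mice per group) at 6 weeks (left) and 3 weeks (right) of the genes of the 7 collagen pathway lists that were called at either time; the 2 horizontal axes differ. Loxl4, Lox, Itga2, Itga1, Lama3 and Bgn lie to the right of 0 in both panels, and Timp4 and P4ha3 lie to the left of it.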

How the data were processed

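Poly(A) RNA of whole mouse thyroid was sequenced as 150 bp read pairs, 1 library per mouse. Per the labels, the authors trimmed reads with Trim Galore 0.6.7, aligned them with STAR to mm39 and used DESeq2 1.36.0. They deposited raw counts per gene, with no normalization, and a normalized signal, which is the count of a gene over a library-wide size factor. Whether counting used strand is not stated in those notes, so reads of overlapping and antisense genes cannot be told apart.

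The deposited counts entered edgeR 4.0.16 in R 4.3.3 (TMM factors, filterByExpr by group, glmQLFit, glmQLFTest), fitted over all genes within a time point, and an interaction was fitted over all 16 libraries. P-values were adjusted by Benjamini-Hochberg over all genes tested, and SE is the absolute log2 fold change divided by the square root of F. Scripts were tested on simulated data. CPM were computed from the counts with TMM factors of the time point, and levels per length use the longest basic protein-coding transcript of GENCODE M21. Symbols were found for 20841 of 21640 identifiers. Promoter windows are from RefSeq, for 34 of the 43 genes. Library totals of 30025256 to 48508653 counts make counting error small beside the spread between mice for all but the rarest genes. Pairs of mice of 1 group differed by a chi-square of at least 15.1 per gene, so no library was counted as a copy of another.

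Named genes are every collagen gene called, with values where the absolute log2 fold change was above 1, the 5 highest per length at each time, and of each pathway list the 2 largest called rises and falls. Other named genes were chosen after their values were seen. The members, classes and lists were chosen with earlier results of these data known. Alternatives were DESeq2 1.42.0, limma 3.58.1 on log2 of the deposited signal plus 1, other scalings and filters, a muscle score covariate, 1 fit of all libraries, and each mouse left out. Marker lists of 14 cell types were read as shares of counts.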

Additional observations from a re-analysis of the deposited data

Results flagged for a closer look

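Of 156 groups of 4 mice (39 tested collagen genes in 4 groups), 13 held a mouse whose gap to the nearest other was most of the group's range, and chance alone gives about 1 in 20. On the HF+SD at 3 weeks, M19y stood apart in 4 genes, high in Col4a3 at 88.1 CPM (others 72.3 to 73.9) and Col4a6 at 117 CPM (others 107 to 108), and low in Col6a1 at 82.9 CPM (others 104 to 106) and Col6a3 at 52.5 CPM (others 70.4 to 73.8). In the same group M20y was high in Col1a1 at 140.4 CPM (others 113 to 118) and M31 high in Col26a1 at 4.12 CPM (others 1.89 to 2.12). On the CD at 3 weeks, M55 was high in Col6a2 at 192 CPM (others 125 to 131) and in Col20a1 at 8.82 CPM (others 5.75 to 6.19), and M53 was high in Col9a2 at 1.26 CPM (others 0.733 to 0.805). At 6 weeks, M43 on the CD was low in Col18a1 at 19.8 CPM (others 34.2 to 36.1). On the HF+SD at 6 weeks, M5 was low in Col9a3 at 25.7 CPM (others 34.1 to 35.1), M34 was low in Col9a2 at 0.262 CPM (others 0.343 to 0.349), and M35 was high in Col7a1 at 20.2 CPM (others 15.7 to 16.4).

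The diet difference of Col12a1 differed between time points by 1.24 on the log2 scale in the interaction test (SE 0.17, adjusted p = 0.014, edgeR), with all HF+SD mice above the CD mice at 6 weeks and below them at 3 weeks. The time points are also separate library projects, and these cannot be told apart.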

How the results depend on the processing

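No paired analysis was possible because the labels number mice and give no number shared between groups. Of the 20 collagen calls at 6 weeks, 20 kept direction and threshold under DESeq2 and under DESeq2 size factors, 16 under limma, 12 with the muscle covariate, 13 without M45 and M48 and 10 on the thyrocyte scale. Of the 18 at 3 weeks, 18 did under DESeq2 and limma, 16 on the thyrocyte scale, 11 with the muscle covariate and 8 in 1 fit of all libraries. An absolute log2 fold change above 1 left 13 collagen and 9 pathway genes at 6 weeks, and 4 and 3 at 3 weeks. In 1 fit of all libraries 8 collagen and 8 pathway genes were called at 3 weeks, and with the muscle covariate 13 pathway genes. Interaction calls of collagen genes numbered 6 by DESeq2 and 0 on the thyrocyte scale and with the muscle covariate. On the thyrocyte scale the median log2 fold change at 6 weeks was -0.094 for fibrillar, -0.58 for type IV, -0.44 for FACIT and 0.084 for transmembrane collagens, and at 3 weeks 0.60, -0.40 and 0.044 for the first 3 of these. There Col11a2 (-0.031), Col12a1 (-0.12) and Col20a1 (-0.0039) reversed at 6 weeks. Genes not called without this scaling also reversed, namely Col1a1 (-0.16), Col1a2 (-0.31), Col4a3 (-0.60), Col4a5 (-0.56), Col6a3 (-0.21), Col15a1 (-0.085) and Col16a1 (-0.44). With the muscle covariate the fibrillar median at 6 weeks was 1.35 (1.30 without M45 and M48), and at 3 weeks type IV was at -0.40 and transmembrane at 0.40. The FACIT median at 6 weeks was 0.59 with at least 10 counts in every library. The cause of these shifts was not tested. Leaving out each mouse gave 8 (without M34) to 21 (without M22) collagen calls and 14 (without M18) to 37 (without M22) pathway calls at 6 weeks, and 0 (without M7, M19y or M20y) to 7 (without M22) interaction calls, with 4 without M43. Over all genes, calls at 6 weeks ran from 1934 (without M34) to 5743 (without M22). The type IV median at 3 weeks ranged from -0.31 (without M55) to -0.010 (without M96). Depth limits only the rarest members, which were not tested.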

Other observations

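The ranges of the remaining marker lists were as follows. Mural cell markers (8 genes) took 0.0361% to 0.0533% (CD) and 0.106% to 0.114% (HF+SD) at 6 weeks and 0.0372% to 0.0439% (CD) and 0.0438% to 0.0674% (HF+SD) at 3 weeks, with 5 and 3 called higher. Adipocyte markers (6 genes) took 0.0660% to 0.167% (CD) and 0.0411% to 0.0782% (HF+SD) at 6 weeks and 0.0729% to 0.104% (CD) and 0.0255% to 0.0541% (HF+SD) at 3 weeks, and 5 of the 6 were called lower at each time. Tendon markers (6 genes, 4 tested) took 0.00753% to 0.0209% (CD) and 0.00991% to 0.0146% (HF+SD) at 6 weeks, with 1 called higher and 2 lower, and 0.00586% to 0.00850% (CD) and 0.00797% to 0.0133% (HF+SD) at 3 weeks. C cell markers (4 genes) took 0.433% to 1.19% (CD) and 0.427% to 0.504% (HF+SD) at 6 weeks and 0.335% to 0.696% (CD) and 0.257% to 0.378% (HF+SD) at 3 weeks, with 2 called lower at each. Parathyroid markers (3 genes) took 0.156% to 1.71% (CD) and 0.0507% to 0.206% (HF+SD) at 6 weeks and 0.00380% to 0.313% (CD) and 0.00266% to 0.112% (HF+SD) at 3 weeks, and 0 were called by edgeR. Leukocyte markers (7 genes) took 0.00422% to 0.00682% (CD) and 0.00974% to 0.0110% (HF+SD) at 6 weeks and 0.00496% to 0.00641% (CD) and 0.00502% to 0.00813% (HF+SD) at 3 weeks. Thymus markers (3 found) took at most 0.0025% and those of stratified and airway epithelium (6 found) at most 0.0093% of the counts in any library.

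Of the 37 windows of 34 collagen genes in RefSeq (GRCm38.p6), 22 held the GC box GGGCGG, which is 59.5% against 35.7% of all windows, and 12 held CCAAT, which is 32.4% against 37.4%. The TATA box TATAAA stood in 5 (13.5% against 13.6%). No difference between these shares was tested.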
